A study of Mus musculus with 30 samples.

Results

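Transcription of 8 germline genes (Sycp3, Taf7l, Tdrkh, Piwil2, Dazl, Mael, Stra8 and Nanos1) was followed in mouse embryonic stem cells depleted of SPT16, which with SSRP1 forms the histone chaperone FACT. The genes were taken by symbol. All 8 are present among the 55291 gene names of the washout count table and among the 21859 genes of each time-course gene table. Transcripts were measured by TT-seq, in which cells incorporate 4-thiouridine during a pulse of 5 min, so that newly made RNA, introns included, is purified and sequenced. The 30 libraries come from E14 embryonic stem cells, an established line, grown without feeders with LIF and inhibitors of GSK3 and MEK. The plant receptor osTIR1 is integrated in these cells. The SPT16-AID cells also carry a mini-AID degron and a V5 tag at the C terminus of SPT16, through which auxin (3-indoleacetic acid, IAA, 500 nM) triggers degradation of the protein. Time-course libraries number 22, in 11 groups of 2. These are untagged cells at 0 h and after 3, 6 and 12 h of IAA, and SPT16-AID cells at 0 h, after 3, 6 and 12 h of the vehicle ethanol (EtOH), and after 3, 6 and 12 h of IAA. The washout experiment has 8 libraries of SPT16-AID cells that received IAA or EtOH for 12 h and then fresh medium without it for 24 h, with 4 libraries per treatment. They come from 2 independently targeted lines, 10E and 11D, with libraries numbered 1 and 2 for each line and treatment. The labels do not tie these names to the Clone1 and Clone2 of the sample titles. In the time course, the 2 SPT16-AID libraries of each group are Clone1 and Clone2 by title. Untagged groups hold replicates 1 and 2. The tag and treatment fields of many time-course libraries contradict their titles, and the titles were followed. Washout libraries within a line are not stated to be separate cultures. Washout p-values therefore reflect spread among these libraries, within and between the 2 lines, and part of it may be technical. Time-course p-values are the authors', and the 2 untagged libraries of a group are not stated to be separate cultures either.

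Germline genes act in primordial germ cells, in meiosis and in gamete formation, and most are kept silent in somatic tissues and in pluripotent cells. In mouse embryonic stem cells many of them are repressed by CpG promoter methylation, by H3K9 methylation, or by the variant Polycomb complex PRC1.6, which reaches DNA through E2F6 and through MGA with MAX, a pair that binds the E-box CACGTG. The 8 genes fall into several roles. SYCP3 builds the axial elements of the synaptonemal complex, which holds homologous chromosomes together. TAF7L is a germ cell paralog of the general transcription factor subunit TAF7. PIWIL2, TDRKH and MAEL belong to the piRNA pathway, which silences transposons in the germline. STRA8 is the retinoic acid-induced factor of meiotic entry. DAZL and NANOS1 are RNA-binding proteins that regulate translation.

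Of the 8 genes, 7 had a promoter in the RefSeq table (GRCm38.p6), cut here to 250 bases before and 30 after the annotated start. Piwil2 was not among them. The promoters printed here are those of the 4 genes called positive in the authors' deposited 12 h table. Stra8, which edgeR called lower after washout, had a promoter that is not printed. The sequences run 5′ to 3′ on the gene's strand. Capitals mark every match, on either strand, to 4 motifs that were searched. They are the E-box CACGTG, the E2F-type sequence GCGGGA (reverse TCCCGC), the TATA-type sequence TATAAA (reverse TTTATA) and the GC box GGGCGG (reverse CCGCCC), and overlapping matches run together. The windows are chr10:88459337-88459616 on the plus strand (Sycp3), chrX:134476461-134476740 on the minus strand (Taf7l), chr3:94412994-94413273 on the plus strand (Tdrkh) and chr19:60755737-60756016 on the plus strand (Nanos1).
Sycp3: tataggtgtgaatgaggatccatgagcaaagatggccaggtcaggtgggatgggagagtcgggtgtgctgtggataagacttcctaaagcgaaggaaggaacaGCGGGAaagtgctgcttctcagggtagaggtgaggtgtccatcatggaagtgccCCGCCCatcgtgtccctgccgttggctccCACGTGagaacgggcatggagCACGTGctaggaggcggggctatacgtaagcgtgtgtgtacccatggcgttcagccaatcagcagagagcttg
Taf7l: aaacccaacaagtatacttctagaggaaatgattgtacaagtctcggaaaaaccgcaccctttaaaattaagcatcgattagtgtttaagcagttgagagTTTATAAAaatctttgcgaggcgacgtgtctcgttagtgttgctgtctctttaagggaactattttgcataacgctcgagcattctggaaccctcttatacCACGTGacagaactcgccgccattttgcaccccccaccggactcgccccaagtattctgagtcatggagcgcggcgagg
Tdrkh: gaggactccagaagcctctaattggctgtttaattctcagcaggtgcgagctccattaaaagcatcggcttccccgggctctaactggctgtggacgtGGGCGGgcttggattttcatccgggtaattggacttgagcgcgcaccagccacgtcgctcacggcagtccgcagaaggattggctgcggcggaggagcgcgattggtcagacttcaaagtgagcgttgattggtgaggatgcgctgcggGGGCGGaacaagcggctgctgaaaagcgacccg
Nanos1: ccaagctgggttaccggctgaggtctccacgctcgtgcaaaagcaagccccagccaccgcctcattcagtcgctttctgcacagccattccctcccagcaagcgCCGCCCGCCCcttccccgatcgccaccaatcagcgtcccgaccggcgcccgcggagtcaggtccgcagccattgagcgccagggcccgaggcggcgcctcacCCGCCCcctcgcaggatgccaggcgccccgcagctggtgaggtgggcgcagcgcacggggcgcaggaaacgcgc

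CACGTG was present in 3 of the 7 promoters, compared with 6.79% of the 32851 RefSeq promoters cut to the same window. Sycp3 holds 2 copies, which begin 64 and 43 bases before the start. Taf7l holds 1 copy, 49 bases before the start, and Mael holds 1 copy, 223 bases before it. The sequence GCGGGA occurred in Sycp3 and Mael, that is 2 of 7, against 18.8% of all promoters. TATAAA was found only in Taf7l (1 of 7), against 13.1%, as a run of overlapping matches on both strands about 150 bases before the start. GGGCGG occurred in 4 of 7 (Sycp3, Tdrkh, Mael and Nanos1), against 34.7%. The Dazl and Stra8 windows held none of the 4 sequences. A match describes the letters only.

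CpG content varied widely among the 7 promoters. The ratio of observed to expected CpG was 1.15 in Taf7l, at percentile 98.8 of all promoters. It was 0.972 in Tdrkh (percentile 92.5), 0.894 in Nanos1 (percentile 87.0), 0.769 in Dazl (percentile 77.1), 0.743 in Mael (percentile 75.1) and 0.621 in Sycp3 (percentile 66.1). Stra8 was lowest at 0.378, close to the median of 0.382 over all promoters. For Stra8 the RefSeq start lies inside the gene model that was counted, downstream of its annotated 5′ end.

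**Figure D1:**
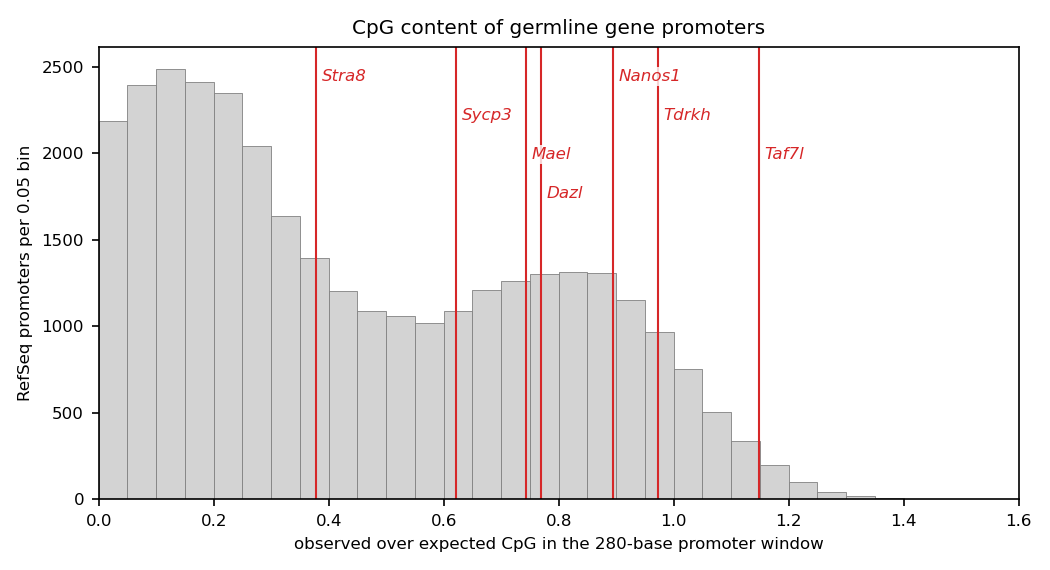
Observed over expected CpG (x axis) in the 280-base window of 32851 RefSeq promoters (grey bars, number per bin on the y axis), with a red line for each of the 7 germline genes. The lines run from 0.378 for Stra8, near the median of all promoters, to 1.15 for Taf7l in the upper tail.

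Depth differed between the washout treatments. Totals ran from 11068135 to 16554314 counts in the 4 EtOH libraries and from 6547992 to 10978586 in the 4 IAA libraries. There were 6 loci that each took more than 0.5% of a library. They held 7.12 to 11.4% of the counts with EtOH and 29.9 to 40.7% with IAA, leaving 9831073 to 15376175 and 3951803 to 7361044 counts for other genes. The largest was the 18S rRNA locus CT010467.1, at 5.73 to 9.27% with EtOH and 20.8 to 29.3% with IAA. The embryonic stem cell label was checked against its markers in the washout libraries. In counts-per-million units (CPM), 10 markers summed to 2545 to 4363 with EtOH and 2961 to 3434 with IAA. Esrrb had the highest mean among these 10, 1753 CPM with EtOH and 1464 CPM with IAA. Sox2 was at 0 in every library, and it lies inside Sox2ot on the same strand. Markers of spermatogonia and spermatocytes, which include Stra8 and Sycp3, summed to 53.9 to 77.4 CPM with EtOH and 43.3 to 72.2 CPM with IAA. Dmc1 had the highest mean among them, 39.9 CPM with EtOH and 19.7 CPM with IAA. Markers of oocytes summed to 6.80 to 11.2 CPM and 3.03 to 10.9 CPM (Figla at 0 in every library). Those of feeder fibroblasts summed to 0.274 to 1.31 CPM and 0.527 to 1.96 CPM.

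Per kilobase of counted gene, 7 of the 8 genes were transcribed at low levels in EtOH-treated cells. Nanos1 was highest, at 1.25 ± 0.411 CPM per kb (SD, n = 4), at percentile 58.3 of the 15110 genes tested. The median gene stood at 0.930 CPM per kb, and the pluripotency gene Pou5f1 at 25.4 CPM per kb. Next came Dazl at 0.185 ± 0.151 CPM per kb and Stra8 at 0.175 ± 0.108 CPM per kb (SD, n = 4 each), at percentiles 20.3 and 19.6. Sycp3 (0.0902 ± 0.0642 CPM per kb) and Mael (0.0383 ± 0.0109 CPM per kb) followed. Piwil2 (0.0249 ± 0.00530 CPM per kb), Tdrkh (0.0197 ± 0.00831 CPM per kb) and Taf7l (0.0194 ± 0.0126 CPM per kb) closed the order, at percentiles 5.51, 4.64 and 4.61. Nanos1 did not overlap Dazl over the 4 libraries. From Dazl downward the ranges of each gene and the next in order overlapped. After IAA washout the order below Nanos1 was different: Piwil2 stood at 0.108 CPM per kb (percentile 15.5) and Stra8 at 0.0374 CPM per kb (percentile 6.92).

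After washout, 1 of the 8 genes was higher in the IAA libraries than in the EtOH libraries and 1 was lower, by edgeR's quasi-likelihood test with the false discovery rate (FDR, Benjamini-Hochberg) held at 0.05 over 15110 genes. The piRNA gene Piwil2 rose and the meiotic entry gene Stra8 fell, the latter in a call that leaving out any of 4 single libraries ended. Only 6 of the 8 reached the count filter, and Taf7l and Tdrkh did not. Across all genes tested 8.83% were called higher and 7.60% lower, and the median log2 fold change was −0.05. With 6 genes tested, 1 call in each direction does not stand apart from those shares. In bulk libraries, fewer cells transcribing a gene and less RNA per cell cannot be told apart.

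Piwil2, which encodes a cytoplasmic PIWI protein that binds piRNAs, lies at chr14:70372477-70429383 on the minus strand (mm10), and exons make up 9.29% of it. Its level with EtOH was 1.16 and 1.25 CPM in line 10E and 1.43 and 1.84 CPM in line 11D, for libraries 1 and 2. With IAA it was 8.04 and 6.32 CPM in 10E and 5.45 and 4.67 CPM in 11D. Every IAA library stood above every EtOH library, in both lines. All IAA libraries lay above all EtOH libraries for 11.8% of the genes tested. The means were 1.42 ± 0.302 and 6.12 ± 1.45 CPM (SD, n = 4 each). The log2 fold change was 2.08 ± 0.31 (SE) with an FDR of 0.00139 by edgeR, and the exact permutation p was 0.0286 (two-sided), the smallest that 4 against 4 libraries can give. Under the alternatives run the log2 fold change ranged from 1.94 to 2.23 and the adjusted p did not exceed 0.0133. The authors' deposited table, which called 8.96% of its genes higher and 7.05% lower, gave 2.09 ± 0.36 (SE) with an adjusted p of 4.34e-07. The counts behind these levels were 15 to 39 per library with EtOH and 41 to 54 with IAA. The counted gene overlaps the small genes Gm22725 and Gm24890 on its own strand. Its nearest upstream neighbour on that strand, Polr3d, ends 9373 bases away and changed by 0.08 on the log2 scale (edgeR FDR 0.830).

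Stra8, at chr6:34920163-34939344 on the plus strand (9.40% exonic), moved the other way but varied more between libraries. With EtOH it was at 2.55 and 5.46 CPM in 10E and 0.823 and 4.58 CPM in 11D. With IAA it was at 0.392 and 0.264 CPM in 10E and 1.21 and 1.00 CPM in 11D. The groups overlapped through EtOH library 1 of 11D, which lay below both IAA libraries of its line. The means were 3.35 ± 2.08 and 0.717 ± 0.460 CPM (SD, n = 4 each), the log2 fold change was −2.14 ± 0.61 (SE) with an edgeR FDR of 0.0330, and the exact permutation p was 0.0857. The call rested on single libraries: the edgeR FDR was 0.0948 without EtOH library 2 of 10E, 0.0876 without IAA library 1 of 10E, 0.0781 without IAA library 2 of 10E and 0.0664 without EtOH library 2 of 11D. The authors' deposited table gave −2.26 ± 0.66 (SE) with an adjusted p of 0.00710.

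Library composition and some marker genes moved with treatment beside these changes. Without the 6 loci of large share, Piwil2 changed by 2.11 on the log2 scale (edgeR FDR 0.00133) and Stra8 by −2.12 (edgeR FDR 0.0334), close to the values with them. The 6 primitive endoderm markers summed to 8.97 to 12.0 CPM with EtOH and 14.7 to 16.4 CPM with IAA. Of the 4 tested, edgeR called 2 higher, Pdgfra (1.14, log2) and Dab2 (1.93), where 8.83% of all genes tested were higher. Gata4 (−0.12, edgeR FDR 0.784) and Gata6 (0.28, edgeR FDR 0.721) were not called. Sox17 and Foxa2 were under the count filter. The 6 trophoblast markers summed to 43.7 to 52.7 CPM and 52.0 to 59.8 CPM, and 0 of 4 tested were called. Primordial germ cell markers (9, which include Dazl) summed to 281 to 465 CPM and 278 to 359 CPM. Kit had the highest mean among these 9, 255 CPM with EtOH and 228 CPM with IAA. The part of these cell types in the germline gene values was not tested.

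Taf7l and Tdrkh were detected with few counts. Taf7l, at chrX:134460118-134476490 on the minus strand (13.7% exonic), had 3 to 13 counts per EtOH library and 3 to 27 per IAA library. Its levels were 0.309, 0.185, 0.165 and 0.613 CPM with EtOH and 0.588, 1.05, 2.72 and 0.890 CPM with IAA, in the order 10E libraries 1 and 2 and 11D libraries 1 and 2. The IAA libraries were higher except that the lowest of them lay just under the highest EtOH library. The fit without a count filter gave a log2 fold change of 2.00 ± 0.65 (SE, edgeR FDR 0.0226), and the authors' deposited table gave 2.03 ± 0.73 (SE, adjusted p 0.0363). The exact permutation p was 0.0571.

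Tdrkh, which encodes a Tudor and KH domain protein of mitochondria that is needed for piRNA trimming, lies at chr3:94413273-94434668 on the plus strand (28.7% exonic) and overlaps Gm42463 on that strand. With EtOH it was at 0.232, 0.370, 0.659 and 0.425 CPM, and with IAA at 0.588, 1.19, 1.11 and 1.22 CPM, in the same order. A single EtOH library, 11D library 1, lay above the lowest IAA library. Its unfiltered log2 fold change of 1.22 ± 0.65 (SE) had an edgeR FDR of 0.240, and the authors' deposited table gave 1.32 ± 0.67 (SE, adjusted p 0.169).

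The other 4 genes were tested and did not pass. Sycp3, at chr10:88459569-88473236 on the plus strand (9.25% exonic, with Chpt1 overlapping on the opposite strand), was at 0.232, 1.30, 1.04 and 2.36 CPM with EtOH and 0.588, 1.58, 2.02 and 1.67 CPM with IAA. The spread within each treatment covered the difference between them, 0.26 ± 0.56 (log2, SE, edgeR FDR 0.786), and the sign turned to −0.06 without EtOH library 1 of 10E. Mael, at chr1:166201201-166238747 on the minus strand, encodes maelstrom, a piRNA factor of germ granules. It was at 1.39, 0.925, 1.92 and 1.51 CPM with EtOH and 1.37, 3.69, 1.82 and 2.67 CPM with IAA, a log2 difference of 0.74 ± 0.40 (SE, edgeR FDR 0.218). The higher IAA values were those of the libraries numbered 2, and the other IAA libraries lay within the EtOH range.

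Dazl, at chr17:50279395-50293636 on the minus strand (26.8% exonic), was at 0.541, 3.33, 1.32 and 5.33 CPM with EtOH and 1.96, 1.32, 3.73 and 1.78 CPM with IAA. The IAA libraries lay inside the EtOH range, and the log2 difference was −0.26 ± 0.59 (SE, edgeR FDR 0.797). It turned to 0.33 without EtOH library 2 of 11D. Nanos1 is a gene of a single exon at chr19:60755987-60759914 on the plus strand. Its levels were 6.03, 6.39, 2.91 and 4.29 CPM with EtOH and 5.49, 4.22, 8.67 and 7.34 CPM with IAA, a log2 difference of 0.40 ± 0.32 (SE, edgeR FDR 0.409).

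**Figure D2:**
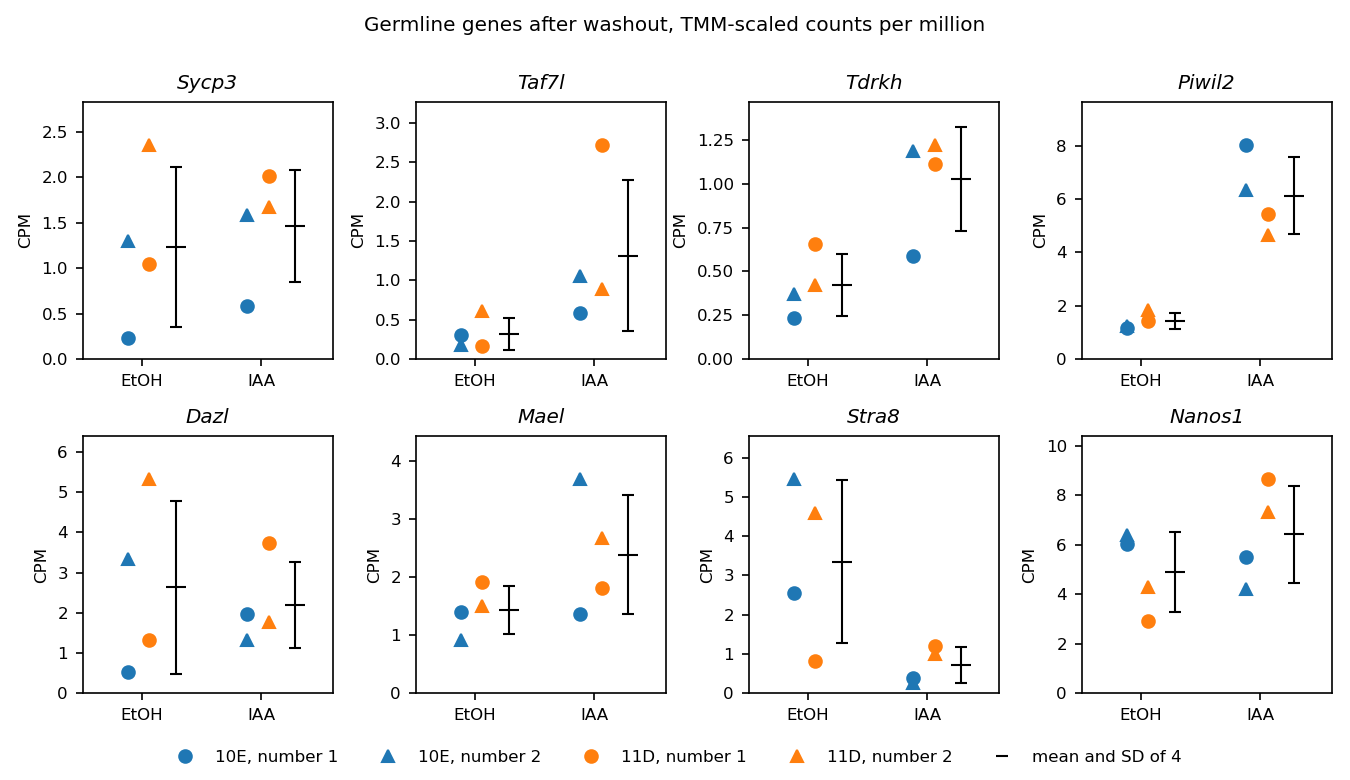
CPM (y axis, from 0, with TMM-scaled library sizes) of the 8 genes in each washout library by treatment (x axis). Colour gives the line, marker shape the library number, and the black bar the mean and SD of 4 libraries. Piwil2 separates the treatments without overlap, from 1.16 to 1.84 CPM with EtOH and from 4.67 to 8.04 CPM with IAA, and the other 7 genes overlap.

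Between the lines, Nanos1 had the lowest interaction p of the 6 genes. In 10E its IAA libraries lay below both EtOH libraries (log2 difference −0.35), and in 11D they lay above both (1.13). The line-by-treatment interaction was 1.51 ± 0.50 (log2, SE, unadjusted p 0.0111 by edgeR), with an FDR of 0.264. Stra8 changed by −3.26 in 10E and −1.22 in 11D, with an interaction of 2.34 ± 1.27 (SE, edgeR FDR 0.399). Piwil2 changed by 2.48 and 1.57, with an interaction of −0.93 ± 0.56 (SE, edgeR FDR 0.445). These changes within a line are log2 ratios of mean CPM with a small constant added. Their difference therefore need not equal the edgeR interaction. By edgeR 0 of the 6 genes passed the interaction test, 1 at an unadjusted p under 0.05, and DESeq2 also called 0 of them. Over all 15110 genes edgeR called 0 (0%), 2250 at an unadjusted p under 0.05, and DESeq2 called 148.

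Sycp3, Dazl and Stra8 varied with the library number among the EtOH libraries. Library 2 exceeded library 1 by 5.58-fold in 10E and 2.26-fold in 11D for Sycp3. The ratios were 6.15 and 4.05 for Dazl, and 2.14 and 5.56 for Stra8. For Piwil2 they were 1.08 and 1.29. Ratios above 2 in both lines were found for 3 of the 6 genes tested, for 14 of 61 other genes tested from wider germline lists, and for 709 of all 15110 genes (4.69%). The median ratio over all genes was 1.02 in 10E and 1.01 in 11D. Some of these EtOH ratios rest on few counts, with 3 and 28 for Sycp3 and 7 and 72 for Dazl in 10E. Among the IAA libraries the ratios in 10E and 11D were 2.69 and 0.827 for Sycp3, 0.672 and 0.477 for Dazl, and 0.672 and 0.827 for Stra8. With both EtOH libraries numbered 1 left out, an alternative chosen after the values were seen, the Sycp3 difference was −0.26 on the log2 scale (edgeR FDR 0.756). In the same fit Dazl was at −0.94 (edgeR FDR 0.162) and Stra8 at −2.70 (edgeR FDR 0.0111).

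In the time course, 0 h and 3 h had 0 of the 8 genes called in the authors' deposited tables, 6 h had 1 and 12 h had 4, all with a positive sign. These tables give 1 fold change per gene, shrunken toward 0, and the sources used here do not say which groups each compares or in which direction. Positive and negative therefore follow the sign in the table. At an adjusted p under 0.05, the share of all genes with an adjusted p that the authors' deposited tables sign as positive was 0.0201% at 0 h, 0.531% at 3 h, 1.71% at 6 h and 8.58% at 12 h. The share that was negative was 0.355%, 0.0458%, 1.39% and 12.1%. At 12 h, 7 of the 8 genes had a positive sign, and the 4 of 8 called stood above the share of 8.58%. The 8 genes were chosen with these results known, so that excess is a description only. Of the 10 embryonic stem cell markers, 0 were positive and 4 negative in the authors' deposited 12 h table. They were Esrrb (−2.05), Zfp42 (−1.85), Nanog (−0.77) and Tfcp2l1 (−0.62), and the median of the 10 was −0.36 against 0.01 over all genes. Of the 6 primitive endoderm markers, 2 were positive and 0 negative there. The part of cell state in the 12 h germline gene values was not tested.

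Nanos1 was the earliest to pass. In the authors' deposited tables its log2 fold change was 0.08 ± 0.16 (SE) at 3 h with an adjusted p of 0.431, and 1.64 ± 0.32 (SE) at 6 h with an adjusted p of 0.000123. By p-value it ranked at place 2 of 18082 genes in the 6 h table. The authors' deposited 12 h table gave 1.83 ± 0.44 (SE, adjusted p 0.000114). Its mean normalised count, as deposited by the authors, was 110 at 6 h and 188 at 12 h, so per kilobase it was the highest of the 8 genes in both tables.

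Sycp3, Taf7l and Tdrkh passed at 12 h and at no earlier time point. In the authors' deposited tables Sycp3 was at 0.07 ± 0.22 (log2, SE, adjusted p 0.608) at 6 h and at 1.85 ± 0.44 (adjusted p 8.98e-05) at 12 h. The authors' deposited tables put Taf7l at −0.04 ± 0.21 at 6 h, with no adjusted p, and at 2.20 ± 0.83 at 12 h (adjusted p 0.00527), on a mean normalised count of 15.8 at 12 h. Tdrkh in the authors' deposited tables was at 0.01 ± 0.20 at 6 h, with no adjusted p, and at 1.04 ± 0.59 at 12 h (adjusted p 0.0461), on a mean normalised count of 19.0. Tdrkh lay next to the threshold: adjusting over every p-value of the authors' deposited table, without their filter on low counts, gave 0.0521 and left 3 genes called. The upstream neighbour of Sycp3 on its strand, Gnptab, ends 12239 bases away and had the opposite sign in the authors' deposited 12 h table, −0.44 (adjusted p 0.0810).

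Dazl, Piwil2, Mael and Stra8 did not pass at 12 h. In the authors' deposited 12 h table Dazl was at 0.36 ± 0.30 (log2, SE, adjusted p 0.297), Piwil2 at 0.27 ± 0.34 (adjusted p 0.487), Mael at 0.06 ± 0.29 (adjusted p 0.893) and Stra8 at −0.08 ± 0.40 (adjusted p 0.849). At 0 h, where 0 of 8 passed, Stra8 had the lowest value in the authors' deposited table, −0.92 ± 0.54 (SE), with an unadjusted p of 0.00172 and an adjusted p of 0.237. It was the only gene of the 8 with an unadjusted p under 0.05 at 0 h, and at 3 h there was none. The authors' deposited 3 h table holds an adjusted p for Dazl and Nanos1 only, so the other 6 genes could not be called there.

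**Figure D3:**
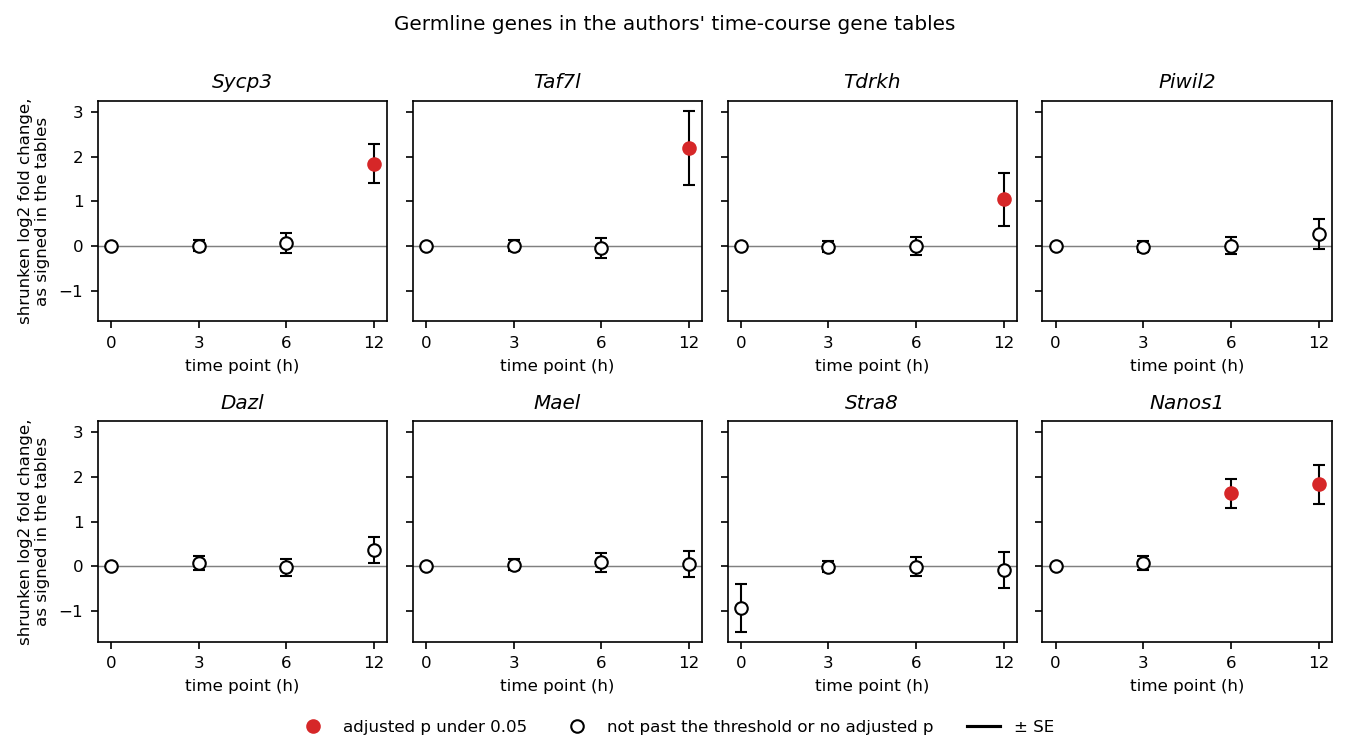
Shrunken log2 fold change as signed in the authors' deposited tables (y axis, bars ± SE) of the 8 genes at 0, 3, 6 and 12 h (x axis). Red points have an adjusted p under 0.05: Nanos1 at 6 h and 12 h, and Sycp3, Taf7l and Tdrkh at 12 h, between 1.04 and 2.20.

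Transcripts upstream of the promoters (PROMPTs) gave little signal at these genes. The authors' deposited PROMPT tables list 6 of the 8, and Sycp3 and Tdrkh are not among them. Piwil2, Dazl and Mael are listed at 0 in all 4 tables, and Taf7l and Stra8 had a mean normalised count under 1 in each. Nanos1 had a mean normalised count of 4.23 to 10.0 in the authors' deposited tables, with adjusted p from 0.883 to 0.993. Of the 6 genes, 0 were called in the authors' deposited tables, and 0 had an unadjusted p under 0.05, where 0.00821% of PROMPTs were called at 0 h, 0% at 3 h, 0.122% at 6 h and 5.05% at 12 h.

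The 2 experiments share no libraries. Of the 4 genes positive at 12 h in the authors' deposited table, Sycp3 was at 0.26 and Nanos1 at 0.40 on the log2 scale after washout, neither called by edgeR, and Taf7l and Tdrkh were under the count filter. Taf7l was called higher after washout in the authors' deposited table (2.03) and in the edgeR fit without a filter (2.00), and Tdrkh was called in neither. Piwil2, the gene that rose after washout, was at 0.27 in the authors' deposited 12 h table. Stra8, called lower after washout by edgeR, was at −0.08 there. The difference between the experiments was not tested, since the time-course tables hold no values per library.

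**Figure D4:**
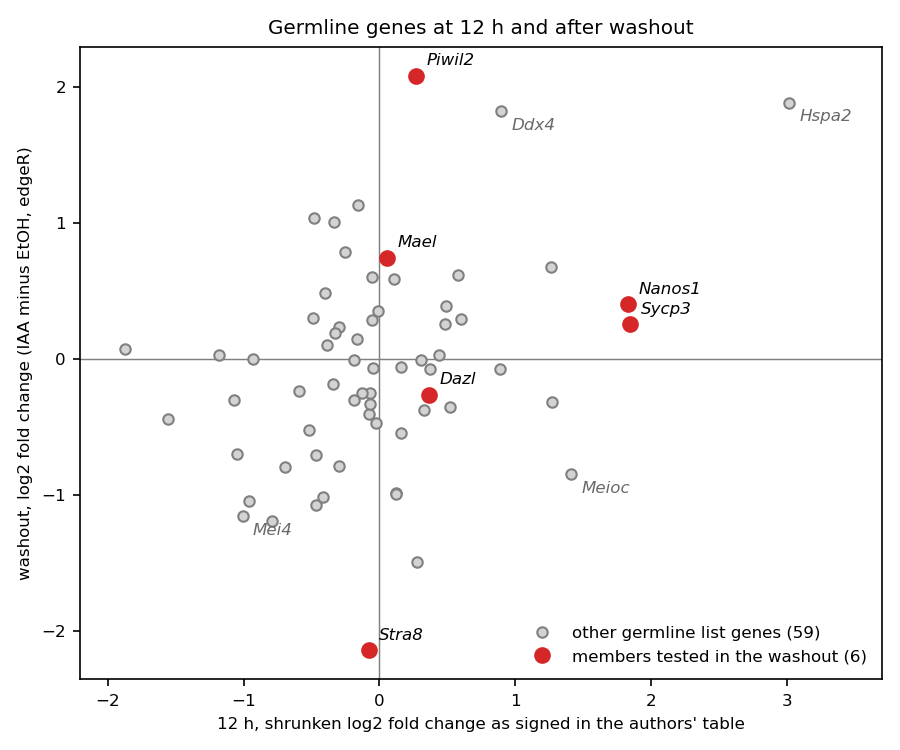
Washout log2 fold change, IAA minus EtOH by edgeR (y axis), against the shrunken 12 h log2 fold change as signed in the authors' deposited table (x axis), for the 6 genes tested in the washout (red) and 59 other genes of the germline lists (grey). Nanos1 and Sycp3 lie to the right near 0 on the y axis, while Piwil2 lies high and Stra8 low near 0 on the x axis.

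A wider set of 100 other germline genes, from 7 lists written from general knowledge, did not move one way as a whole. The authors' deposited 12 h table gives an adjusted p for 83 of them, 7 positive and 8 negative, against 8.58% and 12.1% over all genes, with a median log2 fold change of −0.02 against 0.01. In the authors' deposited table the positive genes were Hspa2, a testis heat shock protein (3.02), Meioc, which sustains meiotic prophase (1.41), the oocyte translational regulator Cpeb1 (1.27), the TAF paralog Taf9b (1.26), the synaptonemal complex gene Sycp2 (1.24), the germ cell helicase Ddx4 (0.90) and the meiotic mismatch repair homolog Msh5 (0.89). Negative genes in the authors' deposited table included Hsf2bp (−1.55), the MSH5 partner Msh4 (−1.18) and Mnd1 (−1.07). The list of germline genes known to be silenced by DNA methylation or PRC1.6, which shares genes with the 8, had 5 positive and 0 negative of 21 in the authors' deposited 12 h table, with a median of 0.15, against 8.58% positive and 12.1% negative over all genes. Of these 5, Sycp3, Taf7l and Tdrkh belong to the 8 genes chosen with their calls known, and the others were Hspa2 and Ddx4. Meiotic recombination genes had 1 positive and 4 negative of 19, with a median of −0.16 there.

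After washout, edgeR tested 61 of the 100 genes and called 4 higher and 6 lower, with a median log2 fold change of −0.07. These counts lie near the 8.83% higher and 7.60% lower over all genes tested. Higher were Gm4969, the Meiosin locus whose product partners STRA8 (1.94), Hspa2 (1.89), Ddx4 (1.83 ± 0.38, SE, FDR 0.00784) and the TAF paralog Taf4b (1.01). Lower were the kinesin gene Kif17 (−1.49), the meiotic recombination genes Mei4 (−1.15) and Dmc1 (−1.01), the meiotic cohesin Rec8 (−0.99), the piRNA nuclease Pld6 (−0.98) and Nanos3 (−0.70). Of the 18 piRNA pathway genes tested, 2 were higher, Piwil2 and Ddx4, and 2 were lower, Kif17 and Pld6.

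Genes known to repress the germline programme were read in both experiments. Of 26 such genes, the authors' deposited 12 h table had 1 positive, E2f6 (0.62), and 7 negative, where 8.58% of all genes were positive and 12.1% negative. Among the negative were the PRC1 subunit Rybp (−1.24), the H3K9 methyl reader Cbx3 (−1.17), the H3K9 methyltransferase Ehmt1 (−0.71) and Max (−0.57). Mga (−0.58), L3mbtl2 (0.02), Pcgf6 (0.01) and Setdb1 (−0.06) were among those not called. The median was −0.14 against 0.01 over all genes in the authors' deposited table. After washout 6 of 26 were higher by edgeR and 0 lower, against 8.83% and 7.60% of all genes, with Dnmt3l (1.09), Trim28 (1.02), Setdb1 (0.79), Ehmt2 (0.65) and Dnmt3b (0.62) among them. The median of the 26 was 0.25 against −0.05 over all genes tested. A link between these genes and the germline genes was not tested.

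Genes responding to retinoic acid, the signal that induces Stra8, had 3 of 15 positive and 0 negative in the authors' deposited 12 h table. Over all genes there, 8.58% were positive and 12.1% negative. Crabp2 (1.99) and Aldh1a2 (0.85) were among the 3 positive. After washout edgeR called Rarg higher (0.68) and Dhrs3 lower (−0.73) of 11 tested, against 8.83% and 7.60% of all genes tested. Genes of primordial germ cell specification had 2 of 14 positive at 12 h in the authors' deposited table, Wnt3 (2.91) and Prdm1 (1.15), and 3 negative, Kit (−1.90), Prdm14 (−1.07) and Nanos3 (−1.05). The 12 h shares over all genes were again 8.58% and 12.1%. After washout edgeR called 1 of 13 tested higher, Wnt3 (3.31), and 1 lower, Nanos3, against 8.83% and 7.60% of all genes tested.

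Over the 8 washout libraries, the genes whose log2 CPM followed each of the 6 tested genes most closely were found by Pearson r among 14798 genes. They were Dna2 (r = 0.996) and 2810408I11Rik (0.992) for Piwil2, Clmp (0.982) and Macrod1 (0.977) for Stra8, and Top2b (0.983) and Gm13456 (0.969) for Sycp3. For Dazl they were Trpc6 (0.964) and Gm26555 (0.957), for Mael Sass6 (0.972) and Golph3 (0.960), and for Nanos1 Qrich2 (0.939) and Fam174c (0.938). The points share libraries and depth, and the highest of many correlations over 8 points is a description only.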

How the data were processed

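Nascent RNA was measured by TT-seq. Per the file headers, the authors' counts are of reverse-strand read pairs, both ends mapped, over gene bodies (introns included) grouped by gene name, with featureCounts 2.0.1. STAR, deepTools and mm10 are named in the submitters' processing notes. The authors' deposited tables give a mean normalised count over libraries (a signal), a log2 fold change, its standard error and p-values, raw and adjusted. The authors' deposited washout table adds a test statistic (a score). Enhancer and DNase-site tables were not used here.

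Counts were fitted with edgeR 4.0.16 in R 4.3.3 (TMM, filterByExpr, robust quasi-likelihood, two-sided, Benjamini-Hochberg over all genes, FDR 0.05), without a block, and the script was tested on simulated data. DESeq2 1.42.0, other scalings, no filter, blocks and leave-one-out fits were alternatives. CPM used TMM-scaled totals. Exact permutation tests and correlations used log2(CPM + 0.5), correlations over genes with a mean CPM of at least 1. Coordinates are mm10, 1-based, with GENCODE M21, in which all 8 genes had the coordinates of the count table. Strand-specific counting separates opposite-strand genes, while same-strand overlaps remain uncertain. No 2 libraries of a treatment matched to within counting error (chi-square over degrees of freedom, 12.2 to 64.9). Line pairs the libraries by design. Same-numbered libraries correlated in their deviations from the group means by 0.39, −0.53, −0.33 and −0.06, so numbers were not taken to pair them.

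The 8 genes, the 10 pathway lists, the 8 marker lists and the tests were chosen with earlier results of these data known. All 8 genes are named in each comparison. From the lists, genes past the threshold are named by size of change, at most 10 per comparison and at most 5 of the repressors. Some list genes that the rule names are not reported here. For tested genes, the nearest upstream same-strand gene within 50 kb and the 2 most correlated genes are named.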

Additional observations from a re-analysis of the deposited data

How the results depend on the processing

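With line and number as a replicate block, edgeR called 1 of the 8 genes (Piwil2) and 1467 genes in all, against 2 and 2483 without it. That fit put Stra8 at an edgeR FDR of 0.0911 (log2 fold change −1.98) and Dazl at 0.0019 on the log2 scale. It treats same-numbered libraries as pairs, which the numbers were not taken to be. Leaving out each library in turn gave 1 to 2 of the 8 genes called and 1415 to 2641 genes in all. In those fits Dazl ranged from −0.65 to 0.33, Sycp3 from −0.057 to 0.76 and Stra8 from −2.49 to −1.81. Without both EtOH libraries numbered 1, chosen after the data were seen, Sycp3 was at −0.26, Dazl at −0.94 and Stra8 at −2.70. The cause of these reversals was not tested. Line as a block called 2 of the 8 genes and 2302 in all. DESeq2 called 2 and 3277, and the fit with no filter, in which all 8 were tested, called 3 (Taf7l added) and 3656. For the difference between lines, 0 of the genes passed in any fit run, while the count over all genes went from 0 to 148 with DESeq2, 421 with no filter, at most 5 with a library left out and 33 without both EtOH libraries numbered 1. Piwil2 kept its call and direction in all 15 alternatives. Counts as low as 2 (Stra8) or 3 (Sycp3, Taf7l and Tdrkh) in a library limit what their washout fold changes can show, and depth behind the time-course tables is unknown.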
